A study of Mus musculus with 6 samples.

Results

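The genes described here are 35 interferon-stimulated genes of the mouse, followed in liver RNA of 3 mice that lack S1P lyase and 3 wild-type (WT) mice. They were chosen by name: every probe set was taken whose platform annotation gives exactly 1 gene symbol equal to one of the 35. This found 48 probe sets for 33 of the 35 genes, out of 45101 probe sets on the array. Isg15 and Ifi44 had no such probe set and have no value here. Each animal was read on 1 Affymetrix array, and each value is a log2 number made by the authors. S1P lyase, encoded by Sgpl1, irreversibly breaks down sphingosine 1-phosphate. The knockout animals carry a knock-out of this enzyme, the WT animals do not, both groups have a mixed C57BL6 and 129sv background, and neither was treated. The labels state no age, sex or litter, and the sources used here do not say how the knock-out allele was made.

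Interferons are cytokines released when cells sense viral or microbial nucleic acid (type I and III) or when T and NK cells are activated (type II, interferon-gamma). Type I and III interferons act through receptors and the kinases JAK1 and TYK2 on a complex that holds STAT2 and IRF9 and binds the interferon-stimulated response element of its targets. Interferon-gamma acts through JAK1 and JAK2, by way of the gamma-activated site in its targets, and further through IRF1. Many target genes answer to both routes. In liver, hepatocytes, macrophages and endothelial cells all carry interferon receptors.

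The promoters of members show these elements, and a few are printed here because they stand for the groups that the results below set side by side: effectors that rose (Ifit1, Rsad2, Oas1a), the transcription factor gene that rose (Irf8), and GTPase genes (Gbp2, which rose, and Igtp and Irgm1, which did not pass). The sequences are from RefSeq on build GRCm38.p6, each 60 bases upstream of the annotated transcription start, 5′ to 3′ on the gene's own strand. Capitals mark matches to the response element core, read as GAAA, any bases at NN, then GAAA, on either strand, or to the gamma-activated site TTCNNNGAA, which reads the same on both strands.
Ifit1 (chr19:34640779-34640838, plus strand): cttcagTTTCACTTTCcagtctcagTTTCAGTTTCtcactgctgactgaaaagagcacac
Rsad2 (chr12:26456538-26456597, minus strand): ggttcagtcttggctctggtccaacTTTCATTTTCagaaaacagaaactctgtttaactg
Oas1a (chr5:120907526-120907585, minus strand): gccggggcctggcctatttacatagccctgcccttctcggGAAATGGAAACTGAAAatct
Irf8 (chr8:120736180-120736239, plus strand): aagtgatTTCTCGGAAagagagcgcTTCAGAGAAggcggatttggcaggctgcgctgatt
Gbp2 (chr3:142620579-142620638, plus strand): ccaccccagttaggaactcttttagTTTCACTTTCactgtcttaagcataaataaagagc
Igtp (chr11:58199496-58199555, plus strand): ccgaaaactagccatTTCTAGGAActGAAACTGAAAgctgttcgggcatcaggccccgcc
Irgm1 (chr11:48871421-48871480, minus strand): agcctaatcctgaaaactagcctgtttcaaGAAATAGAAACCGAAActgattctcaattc
In Ifit1 the core occurs at positions -104 to -95 and again at -85 to -76 from the start. In Oas1a and Irgm1 a pair of matches overlaps. Irf8 has the gamma-activated site at 2 places and no match to the response element core in its windows, and Igtp has both elements side by side.

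RefSeq promoter windows, 250 bases before to 50 after a start, were at hand for 26 of the 35 genes. Of their 32 windows, 15 (46.9%) held the response element core, against 3.44% of all 32851 windows. The gamma-activated site was found in 7 of the 32 (21.9%), against 8.30% of all windows. Among members that rose, 5 of 7 genes with a window held the core, and among the other members 9 of 19, Isg15 included. A match is a string of letters and was not read as a bound site.

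**Figure D1:**
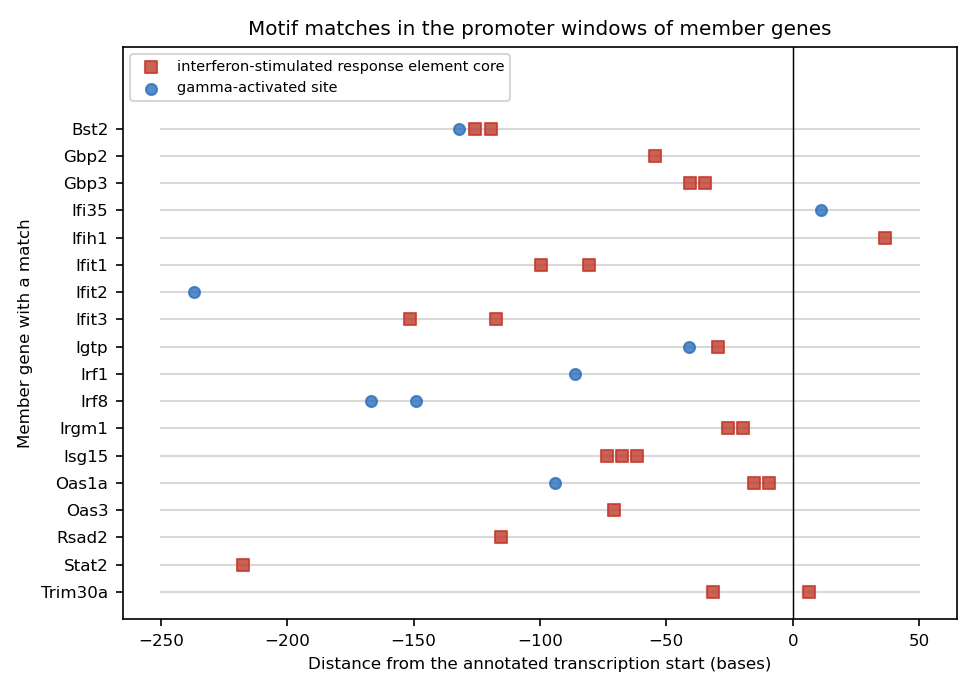
Positions of motif matches in the promoter windows of member genes, as distance in bases from the annotated transcription start (x axis), 1 row per gene with a match. Squares are the response element core and circles the gamma-activated site. The core lies upstream of the start in all genes that hold it but Ifih1, where it lies downstream, and Trim30a. The Trim30a matches belong to different annotated starts, at -36 to -27 from one and at 2 to 11 from another.

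Of the 32 members that could be tested, 11 rose in the knockout livers, none fell and 21 did not pass (limma, Benjamini-Hochberg adjusted p under 0.05 over 13370 genes). Over all genes tested, 10.5% rose and 8.09% fell. The members' median difference, knockout minus WT, was 0.86 log2, beside -0.05 for all genes tested. The difference was above 0 in 29 of the 32 members and in 5937 of the 13370 genes. All 3 knockout values lay above all 3 WT values in 12 members, where 19.0% of all genes tested did the same, and in no member did they lie below, as they did in 21.8% of all genes. The risen members were Ifit1, Ifit2, Oas1a, Oas2, Rsad2, Trim30a, Usp18, Irf8, Gbp2, Ifi27l2a and Parp14. Read by probe set, 16 of the members' 45 tested probe sets rose and none fell, while 10.1% of all tested probe sets rose. Another 8 members had an unadjusted limma p under 0.05 without passing. The share of all genes that did so is not given here, so this count is not read as a result. Mx1 had a probe set but was not tested, since its only probe set was dim. It read 3.16, 3.16 and 2.81 log2 in WT and 3.30, 3.52 and 3.45 in knockout, all below the 3.58 log2 level of the filter. No tested member owed its place to the knockout group alone, since the WT mean of each was above that level. A single WT value of the tested members lay below it, that of Ifit2 in WT replicate 3 (3.34).

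**Figure D2:**
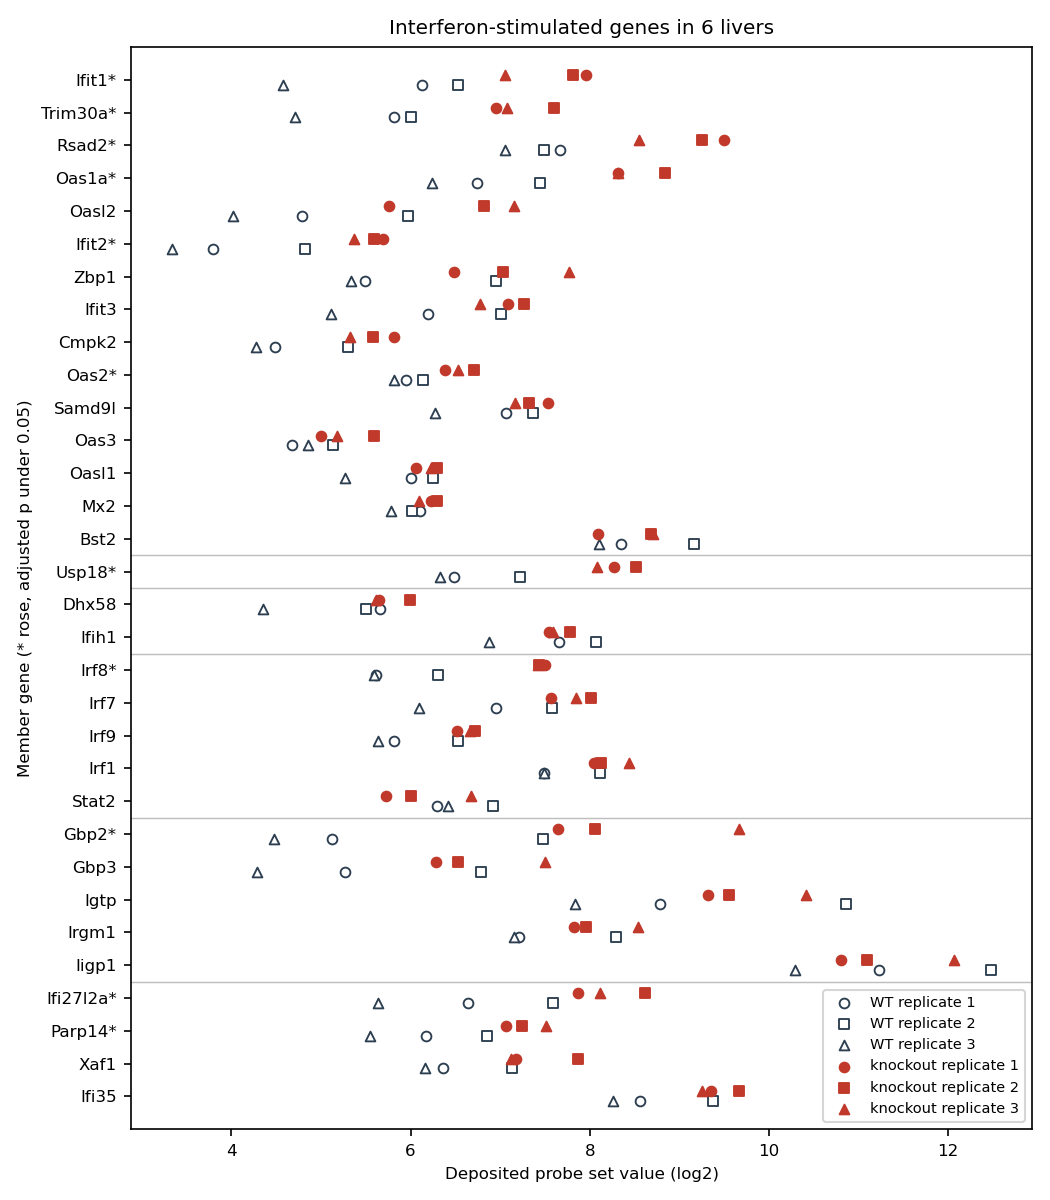
Deposited log2 values (x axis) of the 32 tested members in each of 6 livers, in rows by role. Open symbols are WT and filled symbols knockout animals, the shape gives the replicate, and a star marks the 11 members that rose. WT replicate 2, the open square, is the highest WT animal in 29 rows and WT replicate 3, the open triangle, the lowest in 29.

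The label check and the arrays bear on all of these values. Sgpl1 was 15.7-fold lower in knockout (limma adjusted p = 1.5e-05), with every knockout value below every WT value on both its probe sets. The hepatocyte markers summed to 16.9 to 17.0 log2 in WT and 16.7 to 16.8 in knockout, so the RNA read as liver in all 6. The array medians were 4.08 to 4.15 log2 in WT and 4.07 to 4.09 in knockout. The signal of the 3′ minus the 5′ end of Actb, Gapdh and Pcx was higher in all knockout arrays than in all WT arrays, by 0.45 to 1.01 log2. The bacterial poly-A control RNAs, added before labelling, were 0.75 log2 higher in knockout. With arrays centred on these controls, an alternative chosen with earlier results of these data known, 11 members rose and 4 (Bst2, Stat2, Ifih1 and Iigp1) fell, with a median of 0.11 beside -0.80 for all genes. Over all 13370 genes, 2.82% rose on that scale and 10120 genes fell. Of the 11 risen there, 9 also rose on the deposited scale, Oas2 and Parp14 being replaced by Gbp3 and Oasl2. Calls on the poly-A scale followed the size of the difference more than a gene's own spread between animals. Gbp3 passed there at 0.57 (limma adjusted p = 0.0316) but not at 1.32 on the deposited scale (0.153). On that scale the differences of 12 members turned from positive to negative. The part of either control in the results was not tested.

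Antiviral effectors form the largest group, and 6 of 15 tested rose, where 10.5% of all genes tested did. The IFIT proteins bind foreign RNA and block its translation. Ifit1 read 6.13, 6.53 and 4.58 log2 in WT and 7.96, 7.81 and 7.05 in knockout. The groups did not overlap, and Ifit1 rose 3.63-fold (1.86 log2, SE 0.48, limma adjusted p = 0.0317). Ifit2 read 3.80, 4.82 and 3.34 in WT and 5.69, 5.59 and 5.37 in knockout, a rise of 2.95-fold (adjusted p = 0.0154). The WT animals spread over 1.48 log2 and the knockout animals over 0.32. Ifit3 was 0.94 log2 higher (SE 0.42) and did not pass (limma adjusted p = 0.151), with WT replicate 2, at 7.01, inside the knockout range of 6.78 to 7.27. The Ifit1 and Ifit2 calls were lost without WT replicate 1 (adjusted p = 0.055 and 0.0536), knockout replicate 1 (0.107 and 0.0604) or knockout replicate 2 (0.108 and 0.0606), while Ifit3 passed without WT replicate 2 (0.026). Without WT replicate 3 the Ifit3 difference was 0.44.

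The oligoadenylate synthetases make the messenger that switches on RNase L, which degrades viral and cellular RNA. Oas1a read 6.74, 7.44 and 6.24 log2 in WT and 8.32, 8.84 and 8.32 in knockout. It rose by 1.68 log2 (SE 0.29, limma adjusted p = 0.00686) and passed in every fit with an animal left out. Oas2 read 5.95, 6.14 and 5.81 in WT and 6.39, 6.71 and 6.53 in knockout, a rise of 1.49-fold (adjusted p = 0.0238) that turned to -0.17 on the poly-A scale. Its call was lost without WT replicate 1 (adjusted p = 0.0653), WT replicate 3 (0.0547), knockout replicate 2 (0.088) or knockout replicate 3 (0.0528). Oas3 was 0.37 log2 higher (SE 0.18) and did not pass, and neither did the related Oasl1, at 0.35 (SE 0.23). Oas3 was at 0.21 without knockout replicate 2, and Oasl1 at 0.07 without WT replicate 3 and 0.56 without WT replicate 2. Oasl2 showed a larger difference and a wide spread, with 4.79, 5.97 and 4.02 in WT and 5.76, 6.82 and 7.15 in knockout. At 1.65 log2 (SE 0.51) it just missed the threshold (limma adjusted p = 0.0589), and it passed without WT replicate 2 (0.014) or knockout replicate 1 (0.0495).

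Rsad2 encodes viperin, a radical SAM enzyme that turns a nucleotide into a chain terminator of viral RNA synthesis. It read 7.67, 7.49 and 7.06 log2 in WT and 9.50, 9.25 and 8.55 in knockout, with no overlap. Rsad2 rose 3.24-fold (limma adjusted p = 0.00395), and all 3 of its probe sets rose, by 0.88 to 1.70 log2. Cmpk2, the kinase gene next to Rsad2 that supplies its substrate, was 0.89 log2 higher (SE 0.26) and narrowly did not pass (adjusted p = 0.0517), though its knockout values, 5.82, 5.58 and 5.32, all lay above the WT values, 4.49, 5.30 and 4.27. It passed without WT replicate 2 (limma adjusted p = 0.00566) and with arrays centred on their median (0.0467), and the mean of both Cmpk2 probe sets differed by 0.56.

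Trim30a, a tripartite motif gene, read 5.82, 6.0 and 4.71 log2 in WT and 6.95, 7.60 and 7.08 in knockout. It rose 3.25-fold (limma adjusted p = 0.0114), its other probe set rose by 2.05, and the call was lost without knockout replicate 2 (0.0526). The nucleic acid sensor gene Zbp1, which can trigger necroptosis, was 1.17 log2 higher (SE 0.46) and did not pass, except without WT replicate 2 (adjusted p = 0.017). Samd9l, which restrains viral translation, was 0.44 higher (SE 0.26), and Mx2, a dynamin-like antiviral GTPase gene, 0.23 higher (SE 0.13). Without WT replicate 3 these became 0.12 and 0.14, and Samd9l was at 0.67 without WT replicate 2. Bst2, which encodes tetherin and holds budding virions at the cell surface, differed by -0.04 (SE 0.28, 95% interval -0.70 to 0.62). None of these passed. The effectors thus ranged from a difference near 0 in Bst2 to 1.86 in Ifit1. On the poly-A scale Samd9l, Mx2, Oas2, Oas3 and Oasl1 were lower in knockout, and Bst2 was called as fallen (-0.79).

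Usp18 removes the ubiquitin-like ISG15 from proteins and also blocks the type I interferon receptor, so it is a target and a brake at once. It read 6.48, 7.22 and 6.33 log2 in WT and 8.27, 8.52 and 8.08 in knockout, with no overlap. The rise was 3.07-fold (limma adjusted p = 0.00333), and it passed in every fit with an animal left out. The RNA sensor genes did not pass. Ifih1, the gene of MDA5, was 0.10 log2 higher (SE 0.27, 95% interval -0.52 to 0.73), with WT values of 7.66, 8.07 and 6.88 that enclosed the knockout values of 7.55, 7.78 and 7.59. It was lower on the poly-A scale (-0.65, called as fallen) and without WT replicate 3 (-0.23). Dhx58, the gene of LGP2, was 0.58 higher (SE 0.32), at 0.17 without WT replicate 3, and lower on the poly-A scale. Its other probe sets, a pair below the filter level, differed by -0.19 and 0.13.

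Of the 5 transcription factor genes, Irf8 rose and the other 4 did not pass. IRF8 is needed for monocytes, some dendritic cells and B cells, and is induced by interferon-gamma in macrophages. It read 5.62, 6.31 and 5.59 log2 in WT and 7.50, 7.43 and 7.42 in knockout. The knockout animals lay within 0.08 log2 of each other, and the rise was 3.06-fold (limma adjusted p = 0.00147, the smallest of any member). Both Irf8 probe sets rose, and the call held with each animal left out. Some markers of cells known to express Irf8 were higher in knockout and others were not, and their part in this result was not tested. The Cd79a, Cd79b and Ms4a1 genes of B cells, named after their values were seen, were 1.58 to 2.15 log2 higher in knockout. Of 7 tested B and plasma cell markers 5 rose, where 10.5% of all genes tested did. The summed level was 7.51 to 7.74 log2 in WT and 8.70 to 9.11 in knockout. Pax5 (-0.14) and Cd22 (0.16) did not pass, and Jchain (-0.40) was dim and not tested. Ccr2, the gene of a receptor of inflammatory monocytes, was 2.33 higher. It belongs to the monocyte and dendritic cell list, of which 2 of 7 tested genes rose (Ccr2 and Itgax) and the median difference was 0.12. The dendritic cell genes Flt3, Batf3 and Zbtb46 did not pass (0.13, -0.09 and -0.39), nor did Siglech of plasmacytoid dendritic cells (-0.04). Spib and Tcf4, listed with Siglech, rose by 2.36 and 0.52. In bulk tissue, more cells of a type and more RNA per cell cannot be told apart.

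The genes of factors tied to the type I and type II signal themselves did not pass. Irf7, the amplifier of type I interferon production, was 0.94 log2 higher (SE 0.33, limma adjusted p = 0.0868). Irf9 was 0.64 higher (SE 0.22) and Irf1, an early target of interferon-gamma, 0.51 higher (SE 0.20), and both were lower on the poly-A scale. Irf1, Irf7 and Irf9 passed without WT replicate 2 (limma adjusted p = 0.0252, 0.018 and 0.00685), and Irf7 was at 0.55 without WT replicate 3. Stat2 read 6.29, 6.92 and 6.42 in WT and 5.73, 6.0 and 6.68 in knockout, a difference of -0.41 (SE 0.26), while its other probe set differed by 0.06. The first probe set gave -0.22 without WT replicate 2, -0.21 without knockout replicate 1 and -0.68 without knockout replicate 3, none passing. Both Stat2 readings overlapped between groups. On the poly-A scale the first probe set was called as fallen (-1.16).

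Members with other or less settled roles included 2 that rose. Ifi27l2a, a small mitochondrial membrane protein gene, read 6.64, 7.59 and 5.64 log2 in WT and 7.87, 8.62 and 8.12 in knockout. It rose 2.99-fold (limma adjusted p = 0.0414). Parp14, an ADP-ribosyltransferase gene, read 6.17, 6.85 and 5.55 in WT and 7.07, 7.24 and 7.51 in knockout and rose 2.12-fold (adjusted p = 0.0407), while its second, dimmer probe set differed by 0.21 and was not called. The groups stood apart in both genes. Neither call held when any 1 animal other than WT replicate 2 was left out, with adjusted p-values of 0.0538 to 0.139 for Ifi27l2a and 0.0589 to 0.111 for Parp14 (limma). With array quality weights both calls were lost as well (limma adjusted p = 0.0594 and 0.0689). Parp14 was also not called after quantile normalization (0.0522) or on the poly-A scale (0.21), and the mean of its probe sets differed by 0.64. Xaf1, which promotes apoptosis, was 0.84 higher (SE 0.29), and Ifi35 0.69 higher (SE 0.27), and neither passed. Both passed without WT replicate 2 (limma adjusted p = 0.0216 and 0.00957), and Ifi35 was at 0.45 without WT replicate 3 and lower on the poly-A scale. The second Xaf1 probe set read 5.06 in knockout replicate 2 and 7.72 to 7.75 in the other two knockout animals.

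**Figure D3:**
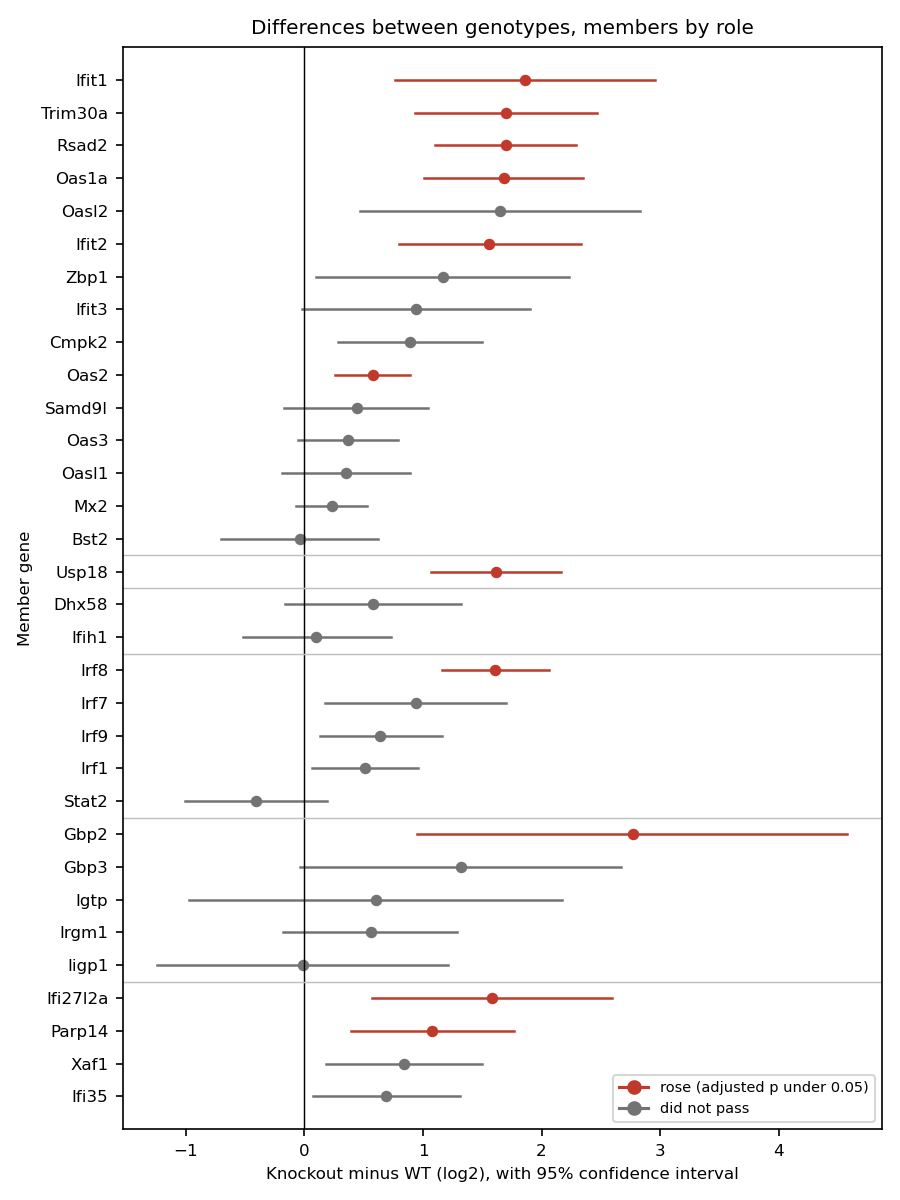
Difference of each tested member, knockout minus WT (x axis, log2), with its 95% confidence interval from limma, by role. Red marks the 11 members that rose. The GTPase genes Gbp2, Igtp, Gbp3 and Iigp1 have the widest intervals.

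The interferon-inducible GTPase genes stood out for their spread between animals of 1 genotype. These large GTPases of the GBP family and immunity-related GTPases of the IRG family attack the vacuoles of intracellular bacteria and parasites, and interferon-gamma is their strongest inducer. Gbp2 read 5.12, 7.48 and 4.48 log2 in WT and 7.65, 8.06 and 9.67 in knockout. The groups stood apart, with WT replicate 2 close below knockout replicate 1. Gbp2 rose (2.77 log2, SE 0.79, limma adjusted p = 0.0449), the highest difference of any member, and its other probe set rose by 2.94. The call was lost without any 1 animal other than WT replicate 2 (adjusted p of 0.0698 to 0.127), and with array quality weights (1.98, limma adjusted p = 0.0941).

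The other 4 GTPase genes did not pass, and their groups overlapped. Gbp3 read 5.27, 6.79 and 4.29 log2 in WT and 6.28, 6.53 and 7.50 in knockout (difference 1.32, SE 0.59). Igtp, also known as Irgm3, read 8.78, 10.86 and 7.84 in WT and 9.32, 9.55 and 10.41 in knockout (0.60, SE 0.68). Its highest value was that of a WT animal. Irgm1 read 7.21, 8.29 and 7.16 in WT and 7.83, 7.96 and 8.54 in knockout (0.56, SE 0.32). Iigp1 read 11.23, 12.48 and 10.29 in WT and 10.80, 11.10 and 12.07 in knockout, a difference of -0.01 (SE 0.53, 95% interval -1.24 to 1.21). All 5 GTPase genes had the same order of animals at the ends, with WT replicate 2 the highest WT animal, WT replicate 3 the lowest of all 6 and knockout replicate 3 the highest knockout animal. The median WT SD of the 5 was 1.26 log2, against 0.57 in the antiviral effectors and 0.16 over all genes tested. Without WT replicate 2, Gbp3, Igtp and Irgm1 passed upwards (limma adjusted p = 0.0185, 0.0426 and 0.0327) and Iigp1 differed by 0.56 without passing. Without WT replicate 3, Igtp differed by -0.06, Gbp3 by 0.74 and Irgm1 by 0.36. On the poly-A scale Igtp and Irgm1 were lower in knockout (-0.15 and -0.19), and Iigp1 was called as fallen (-0.76).

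**Figure D4:**
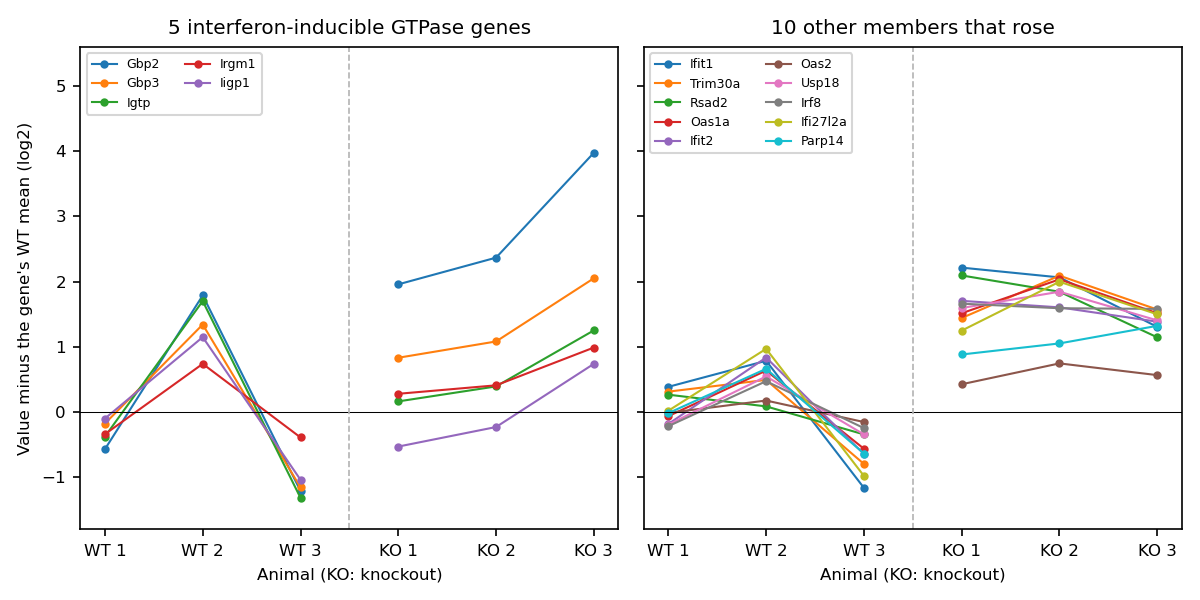
Each gene's value minus its WT mean (y axis, log2) in the 6 animals (x axis), for the 5 GTPase genes on the left and the 10 other members that rose on the right. Lines only join the values of 1 gene within a genotype. On the left WT replicate 2 and knockout replicate 3 stand up, and on the right all knockout values lie above all WT values of the same gene.

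The same WT animals stood at the ends across nearly the whole set. WT replicate 2 was the highest WT animal in 29 of 32 members (90.6%), against 29.5% of all genes tested, and WT replicate 3 the lowest in 29 (90.6%), against 35.4%. The median member lay 0.62 log2 above its WT mean in WT replicate 2 and 0.58 below it in WT replicate 3. Among knockout animals, replicate 3 was the highest in 5 of 5 GTPase genes and in 3 of 15 effectors, and in 36.9% of all genes. The median effector lay 0.83, 1.10 and 0.67 log2 above its WT mean in knockout replicates 1, 2 and 3, and the median GTPase gene 0.28, 0.40 and 1.25 above. Whether effectors and GTPase genes differ in their response was not tested. The WT SD was above the knockout SD in 29 of 32 members, and in 55.0% of all genes tested, with median SDs of 0.60 log2 in WT and 0.27 in knockout. The members share these 6 arrays, so the counts in this paragraph describe animals and are not 32 independent readings. Other measures also set WT replicate 2 apart within its group, such as the lowest sum of neutrophil markers (9.41 log2, against 9.86 in both other WT animals) and the highest sum of Kupffer cell and macrophage markers (12.46, against 12.07 and 11.80). Their part in the pattern was not tested.

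The count of risen members depended on single animals. Without WT replicate 2, 23 of 32 members rose, where 8.38% of all genes did, and these included all 11 members that rose with 6 animals. The count was 5 without WT replicate 1, where 7.14% of all genes rose, and 7 without WT replicate 3, where 10.7% did. With knockout replicate 1, 2 or 3 left out it was 7, 4 and 7, where 6.75%, 5.92% and 9.29% of all genes rose. The calls over all genes, in either direction, numbered 1339 to 2381 in these 6 fits, against 2482 with all animals. Irf8, Oas1a, Rsad2 and Usp18 rose in each of these 6 fits. The members' median difference ranged from 0.52 log2 without WT replicate 3 to 1.24 without WT replicate 2, and no member fell in any of the 6.

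**Figure D5:**
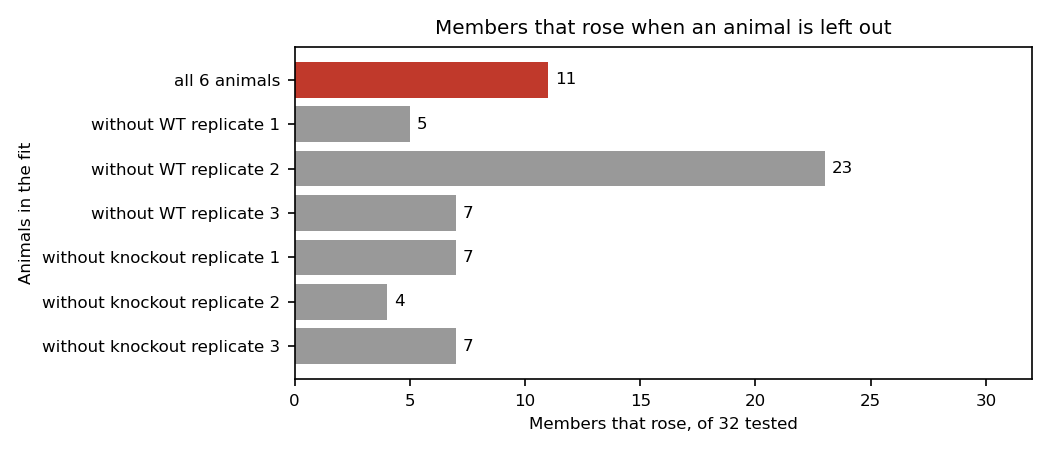
Number of members that rose (x axis, of 32 tested) with all 6 animals and with each animal left out. The count is 11 with all animals, 23 without WT replicate 2 and 4 to 7 in the other 5 fits.

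Upstream of the members, no interferon gene that was tested rose or fell. Ifng and Ifnb1 read 2.35 to 2.55 and 2.90 to 3.23 log2 in all 6 livers, under the filter level, so neither was tested. Of 17 ligand genes listed, 10 had a probe set and 3 passed the filter (Ifna1, Ifna2 and Ifna9), with differences of -0.41 to -0.26. Of 9 tested receptor and JAK-STAT genes, 4 rose and none fell, beside 10.5% and 8.09% of all genes. Il10rb, the shared chain of the interferon-lambda and interleukin-10 receptors, rose by 0.81 log2 (SE 0.15, limma adjusted p = 0.00835), where the poly-A scale gave 0.07 and no call. Ifngr1, the ligand-binding chain for interferon-gamma, rose by 0.63 (SE 0.16), Jak2 by 0.40 (SE 0.11) and Ifnar2 by 0.38 (SE 0.10), and all 3 were lower on the poly-A scale. Jak2 and Ifnar2 lost their calls with any 1 of the 6 animals left out (limma adjusted p of 0.0558 to 0.137 and 0.053 to 0.128). Averaging all tested probe sets per gene gave 0.11 for Jak2 (limma adjusted p = 0.516) and 0.76 for Ifnar2 (0.00192), and Jak2 was not called with no filter (0.0538) or after quantile normalization (0.0856). Ifngr1 lost its call without WT replicate 1 (0.0716) or knockout replicate 2 (0.101) or 3 (0.0742). Ifnar1 (0.35, SE 0.11), Jak1 (0.30, SE 0.13), Ifngr2 (0.04, SE 0.11) and Tyk2 (0.01, SE 0.11) did not pass, and these 4 were lower on the poly-A scale. Ifnar1 passed with array quality weights (limma adjusted p = 0.0392) and with the mean of its probe sets (0.0323). Jak1 passed with the mean of its probe sets (0.58, limma adjusted p = 0.0266) and was at 0.17 without WT replicate 1.

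Of 10 tested genes that restrain interferon signalling, 4 rose and none fell, where 10.5% of all genes rose. Socs3, an inhibitor of JAK kinases best known as a target of interleukin-6, rose by 2.11 log2 (SE 0.21, limma adjusted p = 0.000688), and by 1.39 as the mean of its probe sets. The phosphatase genes Ptpn1, Ptpn2 and Ptpn6 rose by 1.52, 0.61 and 0.49 (adjusted p = 0.000204, 0.0107 and 0.0389), the last 2 turning negative on the poly-A scale. Ptpn6 kept its call only without knockout replicate 3 among the 6 fits with an animal left out (limma adjusted p of 0.0676 to 0.12 in the other 5). Among genes of nucleic acid sensing and interferon induction, 5 of 15 rose, beside the same 10.5%, and none fell. Ikbke, a kinase that activates IRF3 and IRF7, rose by 1.50 log2 (SE 0.24) and Myd88, the adaptor of most Toll-like receptors, by 1.07 (SE 0.18), the latter no longer passing on the poly-A scale (0.32). Unc93b1, which brings endosomal Toll-like receptors to their place, rose by 0.66, Tlr7, a sensor of single-stranded RNA, by 0.59, and Sting1, the adaptor of DNA sensing, by 0.51 (limma adjusted p = 0.0181, 0.0227 and 0.0358), and these 3 were lower on the poly-A scale. Their calls were lost without WT replicate 1 (Tlr7 0.0657, Sting1 0.104), WT replicate 2 (Tlr7 0.056, Sting1 0.0673), WT replicate 3 (Sting1 0.0557), knockout replicate 1 (Unc93b1 0.0525), knockout replicate 2 (Unc93b1 0.0728, Tlr7 0.0819, Sting1 0.107) or knockout replicate 3 (Sting1 0.092), as limma adjusted p-values.

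Further interferon-stimulated genes outside the 35 were read from a list of 64, of which 50 were tested. Here 19 genes rose, against 10.5% of all genes, and none fell. The median of the 50 differences was 0.79 log2. Cd274, the gene of the checkpoint ligand PD-L1, read 4.19, 4.40 and 3.70 log2 in WT and 5.70, 5.28 and 5.66 in knockout, a rise of 1.45 (SE 0.20, limma adjusted p = 0.00253). Ifitm1 and Ifitm2, of a family that hinders virus entry at membranes, rose by 1.05 and 0.87. Ifitm3 of the same family, named after its values were seen, was 0.38 higher (SE 0.21). Its groups overlapped and it did not pass. Ms4a4c, Sp100 and Stat3 rose by 1.27, 1.07 and 0.97, and Stat3 is also the main carrier of interleukin-6 signals. On the poly-A scale Ifitm1, Ifitm2, Sp100 and Stat3 stayed above 0 and no longer passed (0.22 to 0.32, and 0.12 for Ifitm2).

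Some genes of this wider list, named after their values were seen, repeated the order of animals found in the GTPase members. Irgm2 read 6.96, 9.01 and 5.51 log2 in WT and 7.47, 7.87 and 8.51 in knockout, and Gbp6 read 6.19, 8.51 and 4.62 in WT and 7.46, 7.96 and 7.97 in knockout. Both groups overlapped and neither gene passed (differences of 0.79, SE 0.76, and 1.36, SE 0.82), except without WT replicate 2 (limma adjusted p = 0.0431 and 0.0106). Without WT replicate 3 the Irgm2 and Gbp6 differences were -0.03 and 0.44, and with array quality weights 0.09 and 0.65. On the poly-A scale Gbp6 passed at 0.61, though it did not pass at 1.36 on the deposited scale. Calls there followed the size of the difference more than a gene's spread between animals. Cxcl9, a chemokine gene that answers mainly to interferon-gamma, read 5.44, 7.70 and 5.29 in WT and 7.92, 8.51 and 9.10 in knockout and rose by 2.37 (SE 0.61, limma adjusted p = 0.0319). Its lowest knockout value was just above WT replicate 2, and the call was lost without any 1 animal other than WT replicate 2 (limma adjusted p of 0.0569 to 0.0981), and with array quality weights (0.0671).

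Markers of immune cells differed between the same arrays. The shares over all genes tested were 10.5% risen and 8.09% fallen. Neutrophil markers rose in 12 of 13 cases (summed level 9.41 to 9.86 log2 in WT and 14.46 to 14.64 in knockout). Kupffer cell and macrophage markers rose in 6 and fell in 4 of 15 (11.80 to 12.46 and 12.84 to 12.99). Those that rose were Marco, Cd5l, Cd68, Mpeg1, Lyz2 and Gpnmb, with differences of 1.15 to 3.76 log2. Those that fell were Clec4f (-2.82), Vsig4 (-2.30), Cd163 (-2.02) and Timd4 (-1.32), although the sum was higher in knockout. Of the plasmacytoid dendritic cell markers, a cell type known for making type I interferon and for expressing Bst2 and Irf8, 2 of 6 tested rose. They were Spib (2.36) and Tcf4 (0.52). The defining gene Siglech read 4.20 to 4.34 in WT and 4.10 to 4.31 in knockout, and Ccr9 was dim in both groups (summed level of the list 7.83 to 7.94 and 8.37 to 8.47). Of 7 tested T and NK cell markers, 3 rose, Gzma (2.62), Nkg7 (0.97) and Il7r (1.19). Cd3e, Cd3d, Cd8a and Cd4 did not pass (-0.28, -0.25, -0.15 and -0.01). Cd3g, Ncr1 and Cd2 were dim in both groups (summed level of the list 7.76 to 8.01 and 8.39 to 8.59). Monocyte and dendritic cell markers rose in 2 of 7 cases, with Xcr1 dim (7.43 to 7.79 and 8.17 to 8.46). Endothelial markers rose in 1 and fell in 1 of 8 (10.74 to 10.81 and 10.60 to 10.88). Of 11 hepatocyte markers none rose and 3 fell, Tdo2 (-0.71), Hpd (-0.58) and Ttr (-0.29). The difference was below 0 in 10 of the 11 (summed level 16.87 to 16.98 and 16.74 to 16.82). The part of these cells in the members' differences was not tested.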

How the data were processed

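Liver RNA of 3 knockout and 3 WT mice was read on 1 array per animal. The deposited values are log2 probe set values made by the authors. Their scale was settled from the range of the values. MAS5 is named, with no version or role, per the submitters' processing notes, and the sources used here do not state background correction or scaling. Detection calls were not used, and low values may be background.

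Of the probe sets, 27022 were kept, after removal of 64 controls and of those whose mean lay below 3.58 log2 (the 40th percentile). A gene's value is that of the brightest kept probe set annotated to it alone, which left 13370 genes. The test of knockout against WT used limma 3.58.1 under R 4.3.3 (lmFit, eBayes with an intensity trend, two-sided, no covariates), and a gene was called when its adjusted p (Benjamini-Hochberg) was under 0.05. The fit was tested on simulated data. Other probe sets were called in a fit over all 27022.

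The members, lists, naming rule and alternatives were chosen with earlier results of these data known. All members are accounted for. From other lists the text names called genes with the smallest adjusted p and a fixed set of receptors and kinases. Marker sums are log2 of summed linear values. Each sample carries its own identifier in the labels and was taken as 1 animal. The labels do not state this outright, so p-values measure the spread between these samples, which may be technical. Replicate numbers only name samples, and 3 per group limit the precision. Alternatives were other filters, normalizations, variance models and probe set choices, and leaving out each animal.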

Additional observations from a re-analysis of the deposited data

How the results depend on the processing

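With arrays centred on the poly-A controls, 4 members fell, the members' median was 0.11 and 10497 genes were called in all, 377 upwards and 10120 downwards. Calls in that setting followed the size of the difference more than a gene's spread between animals. On that scale the sign turned for Oas2 (-0.17), Oas3 (-0.38), Oasl1 (-0.40), Mx2 (-0.52), Samd9l (-0.31), Ifih1 (-0.65), Dhx58 (-0.17), Irf1 (-0.24), Irf9 (-0.10), Igtp (-0.15), Irgm1 (-0.19) and Ifi35 (-0.06). It also turned for Ifnar1 (-0.40), Ifnar2 (-0.37), Ifngr1 (-0.12), Ifngr2 (-0.71), Jak1 (-0.45), Tyk2 (-0.74), Jak2 (-0.34), Ptpn2 (-0.14), Ptpn6 (-0.26), Unc93b1 (-0.09), Tlr7 (-0.16) and Sting1 (-0.24). With array quality weights 8 members rose (Gbp2, Ifi27l2a and Parp14 were lost), while 12.8% of all genes did, against 10.5% in the main fit. That setting gave -0.07 for Ifih1, -0.06 for Igtp and -0.00 for Tyk2. Quantile normalization gave 10 risen members (without Parp14), where 10.1% of all genes rose, and -0.00 for Ifngr2 and -0.05 for Tyk2. Iigp1 was at 0.02 with arrays centred on their median and at 0.05 with probe sets averaged per gene, which gave -0.17 for Tyk2. Those settings gave 12 and 11 risen members, where 11.1% and 9.41% of all genes rose. The other settings (no filter, a 60th percentile filter, no intensity trend, all probe sets) left 11 risen members. In the same order, 7.51%, 13.1%, 10.6% and 10.3% of all genes rose.

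Leaving out 1 animal gave 4 to 23 risen members, where 5.92% to 10.7% of all genes rose. The members' medians were 0.52 to 1.24, and 1339 to 2381 genes were called. Some genes changed sign, with ranges of -0.26 to 0.27 for Bst2, -0.23 to 0.37 for Ifih1, -0.06 to 1.45 for Igtp, -0.54 to 0.56 for Iigp1, -0.02 to 0.09 for Ifngr2, -0.03 to 0.05 for Tyk2 and -0.03 to 1.72 for Irgm2. The cause of these changes was not tested. No paired analysis was possible because the labels give the groups no shared replicate numbers. Differences of dim probe sets may be understated where background is part of their value.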

Other observations

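Ranked over 13370 genes by WT replicate 2 minus the mean of the other WT animals, 4 of the 40 highest were members (Gbp2, Igtp, Gbp3 and Iigp1), and 5 were from the wider list of interferon-stimulated genes (Gbp6, Irgm2, Cxcl9, Psmb9 and Ifi47). Of the 13370 genes, 32 were members and 50 were from the wider list. The GBP genes Gbp8 and Gbp2b, on neither list, were among the 40 at 1.95 and 1.63 log2. Their knockout minus WT differences were 0.74 and -1.51. The MHC class II genes H2-Ab1, H2-Aa and H2-Eb1 were also there, at 2.30, 2.29 and 2.25 log2 above the other WT animals. Genes of fatty acid synthesis stood beside them, with Scd1 at 3.56, Elovl6 at 2.84, Fasn at 2.69 and Acly at 2.22. In knockout minus WT, the class II genes differed by 1.42, 1.26 and 1.27, and these 4 lipid genes by -0.03, -1.87, -1.96 and -1.42. These genes were chosen after their values were seen and carry no test.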
